A study of Mus musculus with 6 samples.

Results

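Chromatin accessibility near 41 genes of glycolysis and of the cellular response to low oxygen was examined in bone marrow B-cells. A peak, a stretch of DNA where open chromatin was detected, was counted to a gene if it overlapped the gene body. A peak that overlapped no gene was counted to its nearest protein-coding gene within 100 kb. Gene positions came from RefSeq (GRCm38.p6, the assembly on which mm10 is built). These rules gave 282 of the 97124 peaks to 40 of the 41 genes, and Pdk3 had no peak. The genes were listed by their known function, but with earlier results of these data known. A nearest gene is a position rather than a measured target.

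The assay was ATAC-seq, in which a transposase cuts accessible DNA and attaches sequencing adapters to it. The cells came from PEtg mice that carried H2B-GFP, a fluorescent histone diluted at each division. H2B-GFP high cells were labelled quiescent (n = 3 samples) and H2B-GFP low cells proliferating (n = 3 samples), so PEtg and H2B-GFP were common to both groups. The sources used here state no age, no treatment, no driving promoter and no link between samples and mice. The p-values therefore reflect only how far these samples vary, and that variation may be technical. In a bulk sample, a change in the share of cells that are open at a peak cannot be told apart from a change in how open each cell is.

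Glycolysis splits glucose into pyruvate, which lactate dehydrogenase turns into lactate or which enters mitochondria through pyruvate dehydrogenase. When oxygen is scarce, the prolyl hydroxylases that mark HIF alpha subunits for destruction slow down, and HIF, a pair of an alpha subunit and ARNT, binds a short DNA core and raises transcription of glycolytic genes. Lymphocytes that start to divide are known to take up more glucose, and bone marrow is a tissue of low oxygen, which is why both groups of genes are of interest in dividing and resting B-cells.

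The binding core of HIF is written ACGTG or GCGTG here and was searched on both strands in a RefSeq promoter table of GRCm38.p6. A window of that table runs from 250 bases before an annotated start to 50 bases after it. The table held 51 such windows for 36 of the 41 genes and no entry for Bhlhe40, Bnip3l, Epas1, Ndrg1 and Slc2a3. A core lay in 40 of the 51 windows (78.4%), against 43.8% of all 32851 promoter windows. Of the 43 windows of these genes that lay under a peak 83.7% held a core, against 61.9% of all 12683 windows under a peak. The glycolysis and hypoxia windows were also richer in G and C, with a median of 62.3% against 52.7% in all windows. Among windows under a peak the medians were 64.7% and 60.3%. The part of base composition in the number of matches was not tested, and a match is a description of letters and not a bound site. CACGTG, the E-box, which contains ACGTG on both strands, lay in 11.8% of the 51 windows and in 7.15% of all windows. Under a peak the shares were 14% and 10.2%. A pair of CACGTG boxes spaced by 5 bases, a form of the carbohydrate response element, was in no window of the table.

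The 4 windows printed here show only the 250 bases before the gene starts in question, and cores per window are counted in those bases. Ldha and Bnip3 each hold 5 cores, the most of the 51 windows, Ankrd37 holds 4, and Hk1 holds 3 before the start nearest to its strongest start peak. Capitals mark ACGTG or GCGTG read on either strand (CACGT and CACGC on the printed strand), CACGTG counts once on each strand, and each window runs 5′ to 3′ on the strand of its gene.
Ldha (chr7:46845554-46845803, plus strand): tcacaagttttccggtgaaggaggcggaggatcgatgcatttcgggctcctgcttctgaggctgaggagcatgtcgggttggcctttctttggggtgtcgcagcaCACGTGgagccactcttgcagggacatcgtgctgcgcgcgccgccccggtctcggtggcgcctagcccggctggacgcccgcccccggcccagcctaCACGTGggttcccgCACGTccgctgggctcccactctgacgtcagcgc
Bnip3 (chr7:138909507-138909756, minus strand): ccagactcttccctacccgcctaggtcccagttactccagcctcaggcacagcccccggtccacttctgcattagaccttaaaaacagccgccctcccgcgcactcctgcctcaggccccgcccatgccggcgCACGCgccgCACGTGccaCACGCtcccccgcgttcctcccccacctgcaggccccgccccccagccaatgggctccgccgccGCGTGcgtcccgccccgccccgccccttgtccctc
Ankrd37 (chr8:45999851-46000100, minus strand): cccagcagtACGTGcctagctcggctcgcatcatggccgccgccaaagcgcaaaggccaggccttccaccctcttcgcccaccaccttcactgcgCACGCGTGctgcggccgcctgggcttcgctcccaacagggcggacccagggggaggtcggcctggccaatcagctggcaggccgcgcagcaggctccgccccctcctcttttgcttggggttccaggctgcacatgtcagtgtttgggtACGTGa
Hk1 (chr10:62340422-62340671, minus strand): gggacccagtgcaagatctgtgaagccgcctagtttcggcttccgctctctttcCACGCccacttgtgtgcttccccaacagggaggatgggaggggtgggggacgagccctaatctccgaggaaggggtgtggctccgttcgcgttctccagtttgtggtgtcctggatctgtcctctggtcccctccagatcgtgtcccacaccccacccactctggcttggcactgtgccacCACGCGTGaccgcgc
The Ldha window contains 2 E-boxes and the Bnip3 window 1. All 4 windows lay under a peak, and none of those peaks passed the test between quiescent and proliferating cells, as the values for each gene below show.

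Accessibility was compared on log2(deposited signal + 1), where the deposited signal is the authors' scaled measure per peak, with limma over all 87411 peaks above the lowest 10% by mean. Differences are quiescent minus proliferating and are too small for weak peaks because of the added 1, and the threshold was a Benjamini-Hochberg adjusted p of 0.05. Of the 282 peaks, 258 were tested, in 39 genes, and 15 passed (5.81%), against 6.72% of all tested peaks. In quiescent cells 8 were higher, against a background of 4.01%, and 7 were lower, against 2.72%. Their share was thus close to that of the genome at large. The higher peaks lay at Hk1, Eno1, Pfkp, Pdk1, Ldhb, Egln1 and Epas1, and the lower ones at Bhlhe40, Ndrg1, Ldha, Arnt and Epas1. The median difference of the 258 peaks was -0.00, beside -0.01 over all tested peaks, with 127 above 0 and 131 below. The groups did not overlap at 72 of the 258 peaks (27.9%), against 30.4% of all tested peaks.

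None of the 15 changed peaks lay at a gene start. In gene bodies away from starts 2 of 100 tested peaks were higher and 4 lower, and between genes 6 of 100 were higher and 3 lower. Over all genes 7.48% of the peaks away from starts passed, 4.52% higher and 2.96% lower. Within 1 kb of a gene start 0 of 58 tested peaks passed in limma, against 2.04% of all start peaks (0.841% higher and 1.2% lower). An unadjusted limma p under 0.05 was found at 8 of the 58 and at 50 of the 258. Over all 87411 tested peaks that count is given only for fits with 1 sample left out, at 15965 to 23374. The unadjusted counts of groups and genes below therefore have no background from the same fit. The groups did not overlap at 19 of these 58 (32.8%), against 24.2% of all start peaks. Same-numbered samples of both groups deviated together, but numbers 2 and 3 could not be told apart as pairs (see the processing). With the replicate number as a block 14 of the 258 peaks passed as higher and 19 as lower, against 10.2% and 8.14% of all tested peaks. Under the block 1 start peak was higher and 3 were lower, against 2.82% and 4.67% of all start peaks, or 7.49% in either direction.

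Leaving out some of the samples removed calls, at these genes as over all peaks. Without quiescent sample 2 or 3, or without proliferating sample 2 or 3, limma left 0 of the 15, with 33, 40, 31 and 43 of the 258 peaks at an unadjusted p under 0.05. Over all tested peaks the calls in the same fits fell from 5876 to 161, 0, 790 and 1160, with 16739, 16512, 15965 and 16182 at an unadjusted p under 0.05. Without quiescent sample 1 the fit left 11 of the 15 and without proliferating sample 1 it left 13. With any 1 sample left out, the difference of each of the 15 peaks was between 0.757 and 1.22 times its full value. The groups did not overlap at any of the 15, so leaving out samples could not turn a sign. Only a rescaling of the samples could, and all 15 kept their sign there too. Without the intensity trend 3 of the 15 passed. With reads recovered from the signal and divided by library totals, the median over the tested peaks of all genes moved to -0.25. There 10 peaks of the glycolysis and hypoxia genes were higher and 21 lower, against 5.05% and 9.52% of all tested peaks, with all 15 calls kept. With median-of-ratios scaling of those reads 17 were higher and 7 lower, against 9.89% and 3.95%, and 13 of the 15 calls were kept. The 2 lost were the Ndrg1 body peak and the lower peak near Epas1. Over all peaks the higher and lower calls were 3501 and 2375 in the deposited signal, 4416 and 8325 on read totals, and 8645 and 3452 on the median of ratios.

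**Figure D1:**
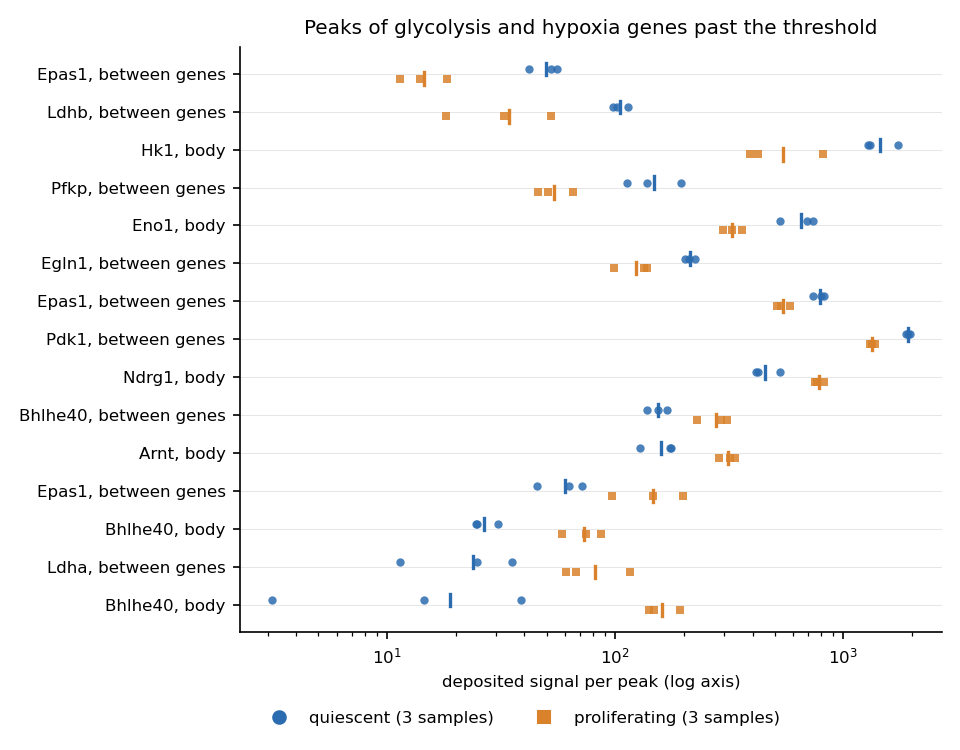
Deposited signal (log axis) of the 15 peaks past the threshold in each of the 3 quiescent samples (circles) and 3 proliferating samples (squares), with vertical bars at group means; rows are ordered by log2 difference, from 1.72 at the top to -3.55 at the bottom. The groups do not overlap in any row, and the smallest difference, 0.52, belongs to the strongest peak, near Pdk1.

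Glucose and lactate transport was represented by Slc2a1 and Slc2a3, which encode facilitative glucose transporters, and Slc16a3, which encodes a lactate exporter. None of their 13 tested peaks passed in limma, 1 had an unadjusted p under 0.05, and none passed with the replicate block. At the Slc2a1 start the signal was 102, 119 and 117 in quiescent samples and 147, 140 and 152 in proliferating samples. The quiescent samples were all lower there, but the difference of -0.38 ± 0.19 (SE) did not pass (adjusted p = 0.257 in limma). The window at an end of Slc2a3 gave 272, 200 and 208 against 310, 311 and 280 (-0.42 ± 0.18, limma adjusted p = 0.196), again without overlap. The strongest peak of the 3 genes, 7700 bp from Slc2a3, had 1552, 1544 and 1855 against 2098, 1585 and 1861, with overlapping groups. The only Slc16a3 peak was too weak to test, at 1.58 to 12.6 in quiescent and 7.17 to 15.1 in proliferating samples.

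Hexokinases trap glucose inside the cell by phosphorylating it. The strongest hexokinase peak lay in the body of Hk1, the form found in most tissues, 51675 bp from its nearest annotated start (chr10:62287241-62288746), and it was higher in quiescent cells. Its signal was 1739, 1309 and 1278 in quiescent samples and 811, 390 and 424 in proliferating samples, so that each quiescent sample lay above each proliferating one. The means were 1442 ± 258 and 542 ± 234 (SD, n = 3 each), a difference of 1.48 ± 0.27 (limma adjusted p = 0.0175, and 0.000197 with the replicate block), from 298 to 2402 reads per sample. Of the 11 tested Hk1 peaks 9 lay above 0, and 1 passed. The strongest Hk1 start peak had 378, 731 and 717 against 463, 491 and 559, with quiescent sample 1 below every proliferating sample. Hk2, the inducible form, had 121, 140 and 151 against 206, 162 and 177 at its start, without overlap, and the difference of -0.40 ± 0.19 did not pass (limma adjusted p = 0.244). At Hk3, a form of blood cells, the start signal of 199, 223 and 216 against 204, 168 and 179 overlapped.

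The upper steps run from Gpi1, the isomerase, through the phosphofructokinases Pfkl, Pfkm and Pfkp to the aldolases Aldoa and Aldoc and to Tpi1, with Pfkfb3 and Pfkfb4 setting the level of a sugar phosphate that activates phosphofructokinase. Of 51 tested peaks 1 passed (1.96%, beside 6.72% of all tested peaks). It lay 43422 bp from Pfkp (chr13:6692482-6693337), where quiescent samples had 112, 138 and 195 and proliferating samples 50.6, 46.0 and 65.5. The means of 148 ± 42.4 and 54.1 ± 10.2 gave a difference of 1.42 ± 0.27 (limma adjusted p = 0.0209). The Pfkp start had 179, 222 and 208 in quiescent and 242, 253 and 279 in proliferating samples, a difference of the other sign that did not pass (-0.35 ± 0.17, limma adjusted p = 0.256).

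At the starts of this group of enzymes signal was mostly lower in quiescent cells without passing the test. Of 16 tested start peaks 13 lay below 0, with a median of -0.31, beside -0.08 over all start peaks, of which 61% were below 0. The Pfkfb3 start had 938, 962 and 1081 in quiescent and 1197, 1328 and 1347 in proliferating samples (-0.38 ± 0.12, limma adjusted p = 0.0934, and 0.0275 with the replicate block). The Aldoa start had 419, 329 and 387 against 578, 478 and 506 (-0.46 ± 0.16, limma adjusted p = 0.115, and 0.0311 with the block). Neither overlapped between groups, and both passed with the block. On recovered reads scaled by the median of ratios the differences shrank to -0.05 at Pfkfb3 (limma-voom adjusted p = 0.813) and -0.18 at Aldoa (0.501). At the Pfkl start the 147 to 175 of quiescent samples lay below the 188 to 212 of proliferating samples, without passing. At the Aldoc start quiescent samples were the higher ones, at 85.4 to 95.2 against 55.3 to 79.8, also without passing. That peak also overlaps Spag5, so it cannot be given to Aldoc alone. The groups overlapped at the strongest start peaks of Gpi1, Pfkm and Tpi1, and the Pfkm peak is shared with Senp1. A weak peak at another Pfkm start (chr15:98108791-98109071) had 14.8, 5.46 and 16.7 in quiescent and 22.6, 36.2 and 26.5 in proliferating samples, the largest difference of the 58 start peaks (-1.24 ± 0.50). It did not overlap between groups and did not pass (limma adjusted p = 0.168), except on read totals (limma-voom adjusted p = 0.0302). The strongest peak of the group, at the Pfkfb4 start, had 1304, 1312 and 1179 against 960, 1320 and 1378, a range shared by both groups. Pfkfb3 had 19 tested peaks, of which 0 passed in limma, 7 had an unadjusted p under 0.05, and with the block 1 was higher and 3 were lower.

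In lower glycolysis, Gapdh makes the first reduced cofactor, Pgam1 and the enolases Eno1 and Eno2 prepare the last phosphate transfer, and Pkm carries it out. The strongest peak of the group lay in the body of Eno1, the enolase of most tissues, 5245 bp from the nearest start (chr4:150242469-150243443), and it passed. Its signal was 527, 692 and 738 in quiescent samples and 360, 296 and 323 in proliferating samples, with means of 652 ± 111 and 326 ± 32.2 (0.99 ± 0.17, limma adjusted p = 0.0163, the smallest of the 15). The groups overlapped at the Eno1 start, at 226, 206 and 243 against 239, 250 and 238 (-0.11, with a standard error of 0.16). Gapdh, often used as an invariant reference, had 171, 131 and 132 against 212, 177 and 200 at its start, without overlap and without passing (-0.44 ± 0.20, limma adjusted p = 0.203). Pgam1 and Pkm starts overlapped between groups, and the Eno2 start, the neuronal form, was too weak to test, at 9.34 to 23.8 against 1.53 to 23.1.

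**Figure D2:**
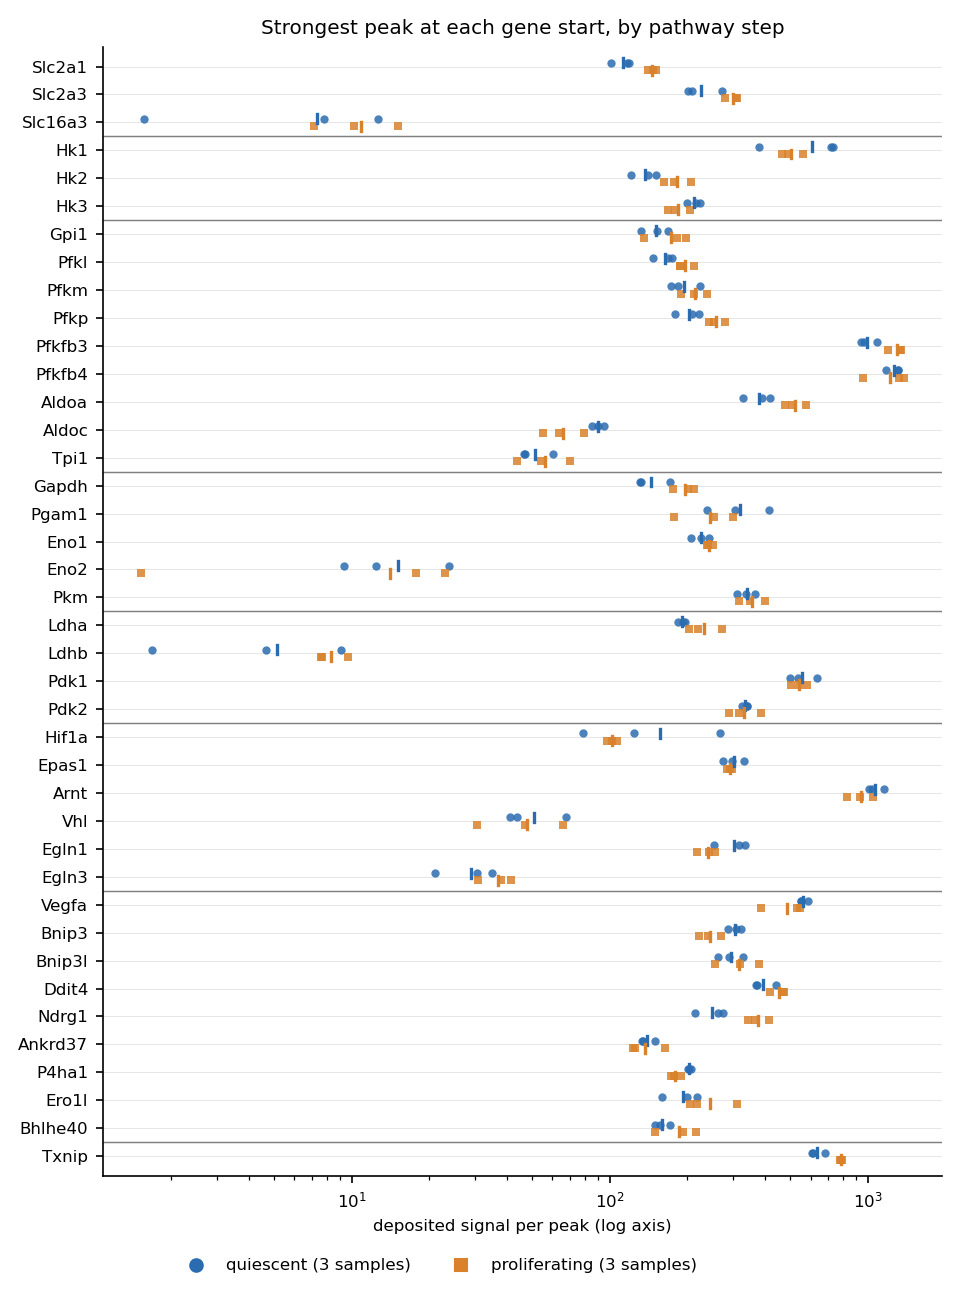
Deposited signal (log axis) of the strongest peak at the start of each of 40 genes, ordered by pathway step with lines between steps; circles are quiescent samples, squares proliferating samples, and vertical bars group means. At 15 of the 37 tested start peaks (40.5%) the groups do not overlap, beside 24.2% of all start peaks, which were not picked as the strongest of a gene. The start peaks of Slc16a3, Eno2 and Ldhb lie at the weak end and were not tested.

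The fate of pyruvate is set by Ldha and Ldhb, the subunits of lactate dehydrogenase, and by the kinases Pdk1, Pdk2 and Pdk3, which switch off pyruvate dehydrogenase. Of 9 tested peaks 3 passed, 2 higher and 1 lower (33.3%, beside 6.72% of all tested peaks). With so few peaks the 2 shares were not compared. The lower one lay 6438 bp from Ldha, the subunit that favours lactate (chr7:46835255-46835836), where quiescent samples had 35.3, 11.4 and 24.6 and proliferating samples 116, 67.3 and 60.7. Its means of 23.8 ± 11.96 and 81.2 ± 29.9 differed by -1.80 ± 0.44 (limma adjusted p = 0.0437). A higher one lay 4144 bp from Ldhb, the subunit that favours pyruvate (chr6:142485733-142486105), with 98.1 to 113 in quiescent and 52.2, 32.7 and 18.2 in proliferating samples. Its means of 104 ± 8.05 and 34.4 ± 17.1 differed by 1.69 ± 0.37 (limma adjusted p = 0.0304). A peak near each of these paired subunits thus moved in the opposite direction, while the Ldha start did not pass and the Ldhb start was not tested.

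At the Ldha start, whose window with 5 cores is printed above, the signal was 192, 183 and 196 in quiescent and 220, 203 and 272 in proliferating samples (-0.27 ± 0.18, limma adjusted p = 0.402). The Ldhb start was too weak to test, at 1.69 to 9.12 against 7.63 to 9.73. The other higher peak lay 4821 bp from Pdk1 and was the strongest of the 15 (chr2:71865810-71868394, 481 to 2882 reads per sample). It had 1925, 1962 and 1875 against 1315, 1380 and 1329, and the samples of each group lay so close that a difference of 0.52 ± 0.10 passed (limma adjusted p = 0.0213). By the median of ratios of reads the difference was 0.90. The main Pdk1 start had 497, 537 and 633 against 504, 539 and 579, with overlapping groups. A weaker peak at another Pdk1 start passed as higher only with the replicate block (0.89 ± 0.39, limma adjusted p = 0.198, and 0.043 with the block). The Pdk2 start had 325, 340 and 341 against 316, 289 and 385, with overlapping groups.

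The oxygen sensor itself consists of the alpha subunits Hif1a and Epas1, their partner Arnt, the prolyl hydroxylases Egln1 and Egln3, and Vhl, which marks hydroxylated alpha subunits for destruction. Of 66 tested peaks 3 were higher and 2 lower (7.58% in all, beside 6.72% of all tested peaks). Near Epas1 peaks moved both ways. The weaker of 2 higher peaks, 30426 bp away (chr17:86723144-86723438), had 41.7, 52.3 and 55.4 in quiescent and 11.4, 18.3 and 14.0 in proliferating samples. That difference of 1.72 ± 0.34 (limma adjusted p = 0.0236) was the largest rise of all 258 peaks and rested on 5 to 44 reads per sample. The stronger one, 42544 bp away (chr17:86709742-86711320), had 738 to 826 in quiescent and 510 to 582 in proliferating samples (0.54 ± 0.13, limma adjusted p = 0.0432), and the difference was 0.815 by the median of ratios of reads.

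Another peak, 22596 bp from Epas1 (chr17:86856006-86856596), was lower, with 71.6, 45.3 and 63.0 against 197, 146 and 97.2 (-1.24 ± 0.31, limma adjusted p = 0.0451). Its call was lost by median-of-ratios scaling of the signal (adjusted p = 0.0502) and of the reads (-1.05, limma-voom adjusted p = 0.0513). Lower signal was also found in the body of Arnt, 24726 bp from its start (chr3:95459116-95459852), with 173, 128 and 176 in quiescent and 317, 335 and 284 in proliferating samples. The means there were 159 ± 26.9 and 312 ± 25.6 (-0.98 ± 0.19, limma adjusted p = 0.0222). The Arnt start differed in sign from its body peak, at 1014, 1034 and 1153 against 828, 935 and 1048, and its groups overlapped (0.19 ± 0.13). On recovered reads scaled by the median of ratios that start peak passed (0.49, limma-voom adjusted p = 0.0257).

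Egln1, the main oxygen sensor, had 13 tested peaks, and 1 of them, 17718 bp away (chr8:124966972-124967700), was higher, with 203, 211 and 224 against 134, 138 and 99.2 (0.79 ± 0.20, limma adjusted p = 0.0491). That call was lost by median-of-ratios scaling of the signal (adjusted p = 0.0504) and with no filter on weak peaks (0.0522). The strongest peak of the oxygen sensing genes, in the Egln1 body, had 1861, 2000 and 2376 against 2648, 2058 and 2030 and overlapped. At the Egln1 start the signal of 254, 334 and 318 overlapped with 218, 257 and 243. Egln3, a hydroxylase that HIF itself induces, had 14 tested peaks with 11 below 0 and 0 past the threshold in limma, 2 of them at an unadjusted p under 0.05. Hif1a had 11 with 8 above 0 and 0 past the threshold, likewise with 2 at an unadjusted p under 0.05. The strongest Hif1a start peak had 78.7, 267 and 124 against 107, 102 and 97.4, where quiescent sample 2 stood apart from its own group. The Vhl start was weak and overlapped, at 40.9 to 67.8 against 30.7 to 65.9.

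Genes that HIF induces held the largest fall of the 258 peaks, at Bhlhe40. Of 73 tested peaks 0 were higher and 4 were lower, with 14 at an unadjusted p under 0.05. The 4 are 5.48% of the group, beside 6.72% of all tested peaks. With the replicate block 2 were higher and 7 lower, where 10.2% and 8.14% of all tested peaks passed. On recovered reads the counts were 4 higher and 4 lower by the median of ratios, and 1 higher and 10 lower by totals. The 4 lower peaks belonged to 2 of the 9 genes, 3 at Bhlhe40 and 1 at Ndrg1.

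Bhlhe40 encodes a transcriptional repressor that is induced by low oxygen and by activation of lymphocytes. A peak in its body (chr6:108662128-108662547) had 38.7, 3.13 and 14.5 in quiescent samples and 141, 192 and 148 in proliferating samples. All 3 quiescent samples were low, quiescent sample 2 holding 2 reads, and the means of 18.8 ± 18.1 and 160 ± 27.9 gave the largest difference of the 258 peaks, -3.55 ± 0.68 (limma adjusted p = 0.0211, and 0.00154 with the block). A neighbour 267 bp further on (chr6:108662814-108663159) had 30.7, 24.6 and 24.7 against 87.0, 74.3 and 58.4 (-1.41 ± 0.28, limma adjusted p = 0.0241). The remaining one lay 42734 bp from the gene (chr6:108709659-108710499), with 138, 169 and 154 against 228, 292 and 308 (-0.84 ± 0.19, limma adjusted p = 0.0367). The window at an end of Bhlhe40 had 157, 150 and 172 against 150, 192 and 216, with overlapping groups (-0.21 ± 0.20). Of its 13 tested peaks 10 lay below 0.

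Ndrg1, a stress-induced gene used as a marker of hypoxia, was lower in its body (chr15:66961683-66964453), with 526, 422 and 413 in quiescent and 824, 753 and 765 in proliferating samples. The means were 454 ± 63.0 and 781 ± 38.1 (-0.79 ± 0.15, limma adjusted p = 0.0193). On reads scaled by the median of ratios the difference was -0.48 and did not pass (limma-voom adjusted p = 0.0773). The window at an end of Ndrg1 had 274, 213 and 263 against 342, 365 and 414, without overlap (-0.58 ± 0.17, limma adjusted p = 0.077). It passed with the block (0.0243) and on read totals (limma-voom adjusted p = 0.0305), and not by the median of ratios of reads (-0.40, limma-voom adjusted p = 0.131). All 6 tested Ndrg1 peaks lay below 0.

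The other 7 induced genes had no peak past the threshold in limma. Bnip3, a mitophagy receptor, had 288, 308 and 324 in quiescent and 221, 241 and 271 in proliferating samples at the start whose window with 5 cores is printed above, without overlap (0.33 ± 0.16, limma adjusted p = 0.254). Bnip3l, its relative, overlapped, at 327, 263 and 291 against 377, 257 and 318. Ankrd37, whose window holds 4 cores, had 150, 133 and 134 against 123, 126 and 164 (0.03 ± 0.20). Its groups overlapped. P4ha1, a collagen hydroxylase, had 201 to 207 against 173 to 188 at its start, without overlap and without passing. The groups overlapped at the starts of Ero1l, an oxidase of protein folding, and Ddit4, a brake on the growth kinase mTOR. Vegfa, the angiogenic growth factor, had the most tested peaks, 21, and 3 of them had an unadjusted p under 0.05. The strongest of all peaks of the 41 genes, 12671 bp from Vegfa, had 3200, 2801 and 2501 against 3529, 2474 and 2059, a range that both groups shared.

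Txnip, which restrains glucose uptake and is itself induced by glucose, had 613, 682 and 608 in quiescent and 795, 781 and 787 in proliferating samples at its start. The groups did not overlap, and the difference of -0.31 ± 0.12 did not pass (limma adjusted p = 0.16, and 0.0849 with the block). That peak also overlaps Gm15441, so it cannot be given to either gene alone. Of the 7 tested Txnip peaks 6 lay above 0 and 0 passed, with 1 at an unadjusted p under 0.05 and 1 higher with the block.

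**Figure D3:**
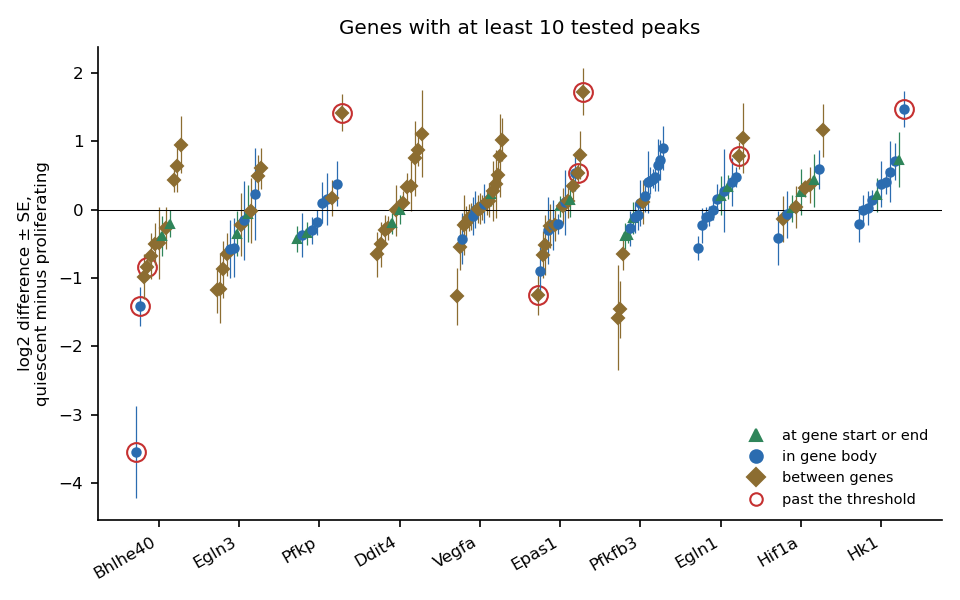
Log2 difference (quiescent minus proliferating, with its SE as a vertical line) of every tested peak of the 10 genes with at least 10 tested peaks, by position of the peak, with red rings at peaks past the threshold. Peaks of a gene spread to both sides of 0 in each of the 10 genes, from -3.55 at Bhlhe40 to 1.72 at Epas1.

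How small a change could be seen differed with the strength of the peak. Of the 58 start peaks, 45 had an unadjusted 95% interval of the difference that lay within 1 log2 unit of 0, beside 73.6% of all start peaks. Over the 258 peaks that number was 138, beside 46.4% of all tested peaks. Among the weaker 129 peaks 4 passed and among the stronger 129 there were 11. The start peaks had standard errors from 0.12 to 0.50. The adjusted threshold asked for more than an unadjusted interval that leaves out 0. The Pfkfb3 start (-0.646 to -0.108) and the Aldoa start (-0.821 to -0.105) had such intervals and did not pass. Changes of that size at a gene start could thus go uncalled here.

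**Figure D4:**
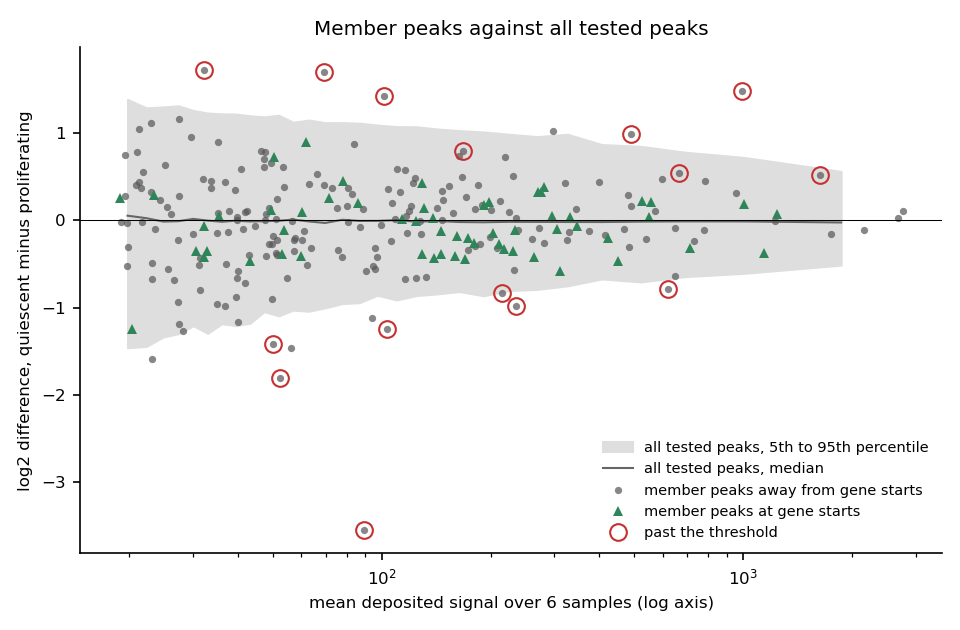
Log2 difference of the 258 tested peaks (quiescent minus proliferating) against mean deposited signal (log axis), with triangles at gene starts, circles elsewhere and red rings at the 15 peaks past the threshold; the grey band spans the 5th to 95th percentile of all tested peaks. The start peaks run from -1.24 to 0.89 and carry no ring.

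Of 87 other genes of glucose metabolism, HIF control and HIF targets, 75 had a tested peak. Among their 342 tested peaks 15 were higher and 9 lower (7.02%, against 6.72% of all tested peaks), with a median of -0.09. With the replicate block 28 were higher and 26 lower, where 10.2% and 8.14% of all tested peaks passed. By gene, 11 had only higher calls, 5 only lower ones, 2 both and 57 none. At gene starts 4 of 90 passed, beside 2.04% of all start peaks. The difference from the 0 of 58 above was not tested. Slc2a6, a sugar transporter of lysosomes, was higher at its start, with 1372, 1649 and 1971 against 942, 937 and 1086 (0.74 ± 0.15, limma adjusted p = 0.0254). Crebbp, a coactivator that HIF recruits, was higher, with 177, 129 and 162 against 77.5, 78.5 and 82.1 (0.95 ± 0.21, limma adjusted p = 0.0319). Car12, a carbonic anhydrase, was lower, with 473, 528 and 475 against 827, 760 and 763 (-0.67 ± 0.13, limma adjusted p = 0.0216). Mlxipl, the glucose-sensing transcription factor of the carbohydrate response element, was lower, with 67.8, 79.5 and 71.3 against 110, 151 and 148 (-0.88 ± 0.22, limma adjusted p = 0.049). In none of the 4 did the groups overlap.

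The labelled cell type was checked against marker genes, summing the signal of peaks at their starts. All 8 B-cell markers had a start peak, and their sum was 14598 to 17291 in quiescent and 17505 to 21094 in proliferating samples, with 3 of 16 peaks lower. Of 8 myeloid markers 4 had one, and Mpo, Elane, Csf3r and Cebpe had none. The myeloid sum was 758 to 926 in quiescent and 496 to 567 in proliferating samples, with 1 of 5 peaks higher. Of 7 T and NK markers 2 had one (1342 to 1891 against 1189 to 1320), with 1 of 4 peaks higher. Cd3e, Cd3g, Cd4, Cd247 and Ncr1 had none. Of 8 erythroid and megakaryocyte markers 1 had one (87.6 to 116 against 164 to 227), with 1 of 2 peaks lower. Of 5 plasmacytoid dendritic and plasma cell markers 4 had one (1606 to 1744 against 1148 to 1437), with 1 of 4 peaks higher. Over all genes 2.04% of start peaks passed. All 5 sums differed between groups without overlap, and no background was computed for such sums. Their part in the results on the glycolysis and hypoxia genes was not tested. The shallowest library was proliferating sample 1, with an estimated 8054279 reads in peaks, and the deepest was proliferating sample 3, with 48996558.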

How the data were processed

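Per the labels, ATAC-seq was run on quiescent and proliferating bone marrow B-cells, 3 samples each, each sequenced in a pair of runs. Bowtie2, SAMtools, MACS2 and the build mm10 are listed in the submitters' processing notes. Their versions and settings, and how reads were counted, are not stated there. The authors deposited a scaled signal per sample for 97124 shared peaks. Low values lie on steps worth 1 read, which gave estimated reads in peaks of 8054279 to 48996558 (median 27 to 179 per peak). Between 98.6% and 100.0% of values of 1 to 300 reads came within 0.1 of a whole number.

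limma 3.58.1 (R 4.3.3) with an intensity trend was fitted on log2(signal + 1) over 87411 peaks, leaving out the lowest 10% by mean, with Benjamini-Hochberg adjustment. Scripts were tested on simulated data. Python 3.11.15, numpy 2.4.6, pandas 2.3.3 and matplotlib 3.10.9 did the rest. Deviations of same-numbered samples correlated (0.43, 0.285 and 0.21), all above 0.1, so the replicate numbers were taken to pair the samples. Differently numbered pairs ran from -0.361 to 0.22. Quiescent sample 2 with proliferating sample 3 gave that 0.22, and 3 with 2 gave 0.146, both also above 0.1. The pairing of numbers 2 and 3 is therefore not shown by these values. The sources do not say what a number shares.

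Alternatives were another pseudocount (10), filters (none, 25%), median-of-ratios scaling, no trend, the replicate block, leaving out each sample, and other assignment rules. Those chosen after seeing the data were limma-voom on the recovered reads, by totals and by median of ratios, and a nearest-gene rule that also covers peaks over non-coding genes. A planned TMM form was not run.

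The genes and lists were chosen with earlier results of these data known. Named with values are peaks past the threshold, the strongest start peak of each gene, the strongest peak of each role and counts for genes with 10 or more tested peaks; other pathway genes are named only for a start peak past the threshold. Other peaks named were chosen after their values were seen. A start peak overlaps the window of 1 kb either side of an annotated start, or of either gene end for the 5 genes the promoter table lacks. The strongest start peaks of Aldoc, Bhlhe40, Hk1, Ndrg1, Pfkm, Pfkp, Pkm, Slc2a1 and Txnip also overlap another annotated gene. Ero1l was matched by synonym. No genome was used, so no sequence of a changed peak is shown.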

Additional observations from a re-analysis of the deposited data

How the results depend on the processing

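All 15 calls kept their sign in every setting run. Their groups did not overlap, so only a rescaling of the samples could have turned a sign. Of the values of these calls under the alternatives 127 stayed past the threshold and 83 did not. Higher and lower peaks numbered 8 and 7 at first, 14 and 19 with the replicate block, and 2 and 2 without the intensity trend. Recovered reads gave 17 higher peaks by the median of ratios and 21 lower peaks by totals. Counting only peaks in gene bodies left 2 higher and 4 lower, and a limit of 20 kb left 5 higher. Of the 7 lower peaks that limit dropped those 22596 bp from Epas1 and 42734 bp from Bhlhe40 and kept the rest. Leaving out single samples gave 0 to 11 higher and 0 to 7 lower peaks. The median difference of the 258 peaks was -0.324 by read totals (all tested peaks -0.25), -0.054 by the median of ratios of reads, and between -0.064 and 0.0305 without single samples. The start-peak median was -0.336 by read totals and between -0.149 and 0.0373 without single samples. The other pathway genes had 24 calls, 54 with the block, 9 without the trend, 49 by read totals and 0 to 32 without single samples. Over all peaks 5876 passed, 15999 with the block, 3247 without the trend, 12741 and 12097 on reads by totals and by the median of ratios, and 0 to 8241 without single samples. The cause of these moves was not tested. The block lost none of the 15 calls. Peaks with few reads in some library, such as those in Bhlhe40 (2 reads), near Epas1 (5) and near Ldha (7), are the least precise.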

Other observations

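Some peaks of these genes passed with the replicate block and not without it on the deposited signal, and those given here were chosen after their values were seen. On recovered reads the Vegfa peak and the Pfkfb3 body peak passed under both scalings, and that of Arnt and the lower one of Egln1 passed on totals alone. The higher one of Egln1 passed by the median of ratios alone, and the one near P4ha1 under neither. A peak 62809 bp from Vegfa had a signal of 392 ± 87.8 in quiescent and 204 ± 98.1 in proliferating cells (SD, n = 3 each), a log2 difference of 1.02 ± 0.31 (limma adjusted p = 0.0859, and 0.0147 with the block). In the body of Arnt a further peak had 58.9 ± 20.3 against 129 ± 50.1 (-1.11 ± 0.35, limma adjusted p = 0.0946, and 0.0113 with the block). Near P4ha1, 3043 bp away, the signal was 506 ± 72.3 against 793 ± 171 (-0.63 ± 0.19, limma adjusted p = 0.0836, and 0.00755 with the block).

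At Pfkfb3 the start and the body differed in sign with the block. The body peak 4736 bp from the start had 904 ± 67.2 against 662 ± 67.7 (0.45 ± 0.14, limma adjusted p = 0.0822, and 0.0296 with the block), while the start peak was lower. In the body of Egln1 a pair of peaks also differed in sign, with 188 ± 17.0 against 278 ± 24.1 at one (-0.56 ± 0.17, limma adjusted p = 0.0827, and 0.0314 with the block) and 691 ± 70.6 against 497 ± 61.5 at the other (0.48 ± 0.15, limma adjusted p = 0.0964, and 0.0205 with the block).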
